A study of Mus musculus with 27 samples.

Results

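The 10 genes described here are the markers and transcription factors by which an epithelial-to-mesenchymal transition (EMT) is usually followed. They are the cadherin genes *Cdh1*, *Cdh2* and *Cdh11*, the epithelial adhesion gene *Epcam*, the vimentin gene *Vim*, and the factor genes *Snai1*, *Snai2*, *Twist1*, *Zeb1* and *Zeb2*. They were chosen by name, matched to the Ensembl identifiers of the 48795 genes listed for each library, and all 10 were found. RNA was sequenced from 27 libraries of mouse cells in 9 groups of 3, which follow the in vitro differentiation of embryonic stem cells (ESC) toward gonadal progenitors and Sertoli-like cells. All cells came from a single XY line of an F1 C57BL/6 x CBA background (clone 7), which carried Tesco-CFP, a fluorescent reporter driven by a *Sox9* enhancer active in Sertoli cells, and R26-rtTA, which allows doxycycline induction. EpiSC were ESC cultured for 60 hours with Activin A (20 ng/ml) and bFGF (12 ng/ml). Mesoderm cells (M) were EpiSC exposed for 36 hours to bFGF (20 ng/ml), BMP4 (10 ng/ml) and the PI3-kinase inhibitor LY294002 (10 µM). The intermediate mesoderm conditions were all made from M with bFGF (5 ng/ml) and BMP4 (20 ng/ml). IM1 had no other factor, IM3 had retinoic acid (RA, 100 nM), IM2 had RA and Activin A (10 ng/ml), IM4 had RA and the WNT agonist CHIR99021 (0.3 µM), and IM5 had RA and both. The induced Sertoli-like cells (iSLC) were IM3 cells infected with doxycycline-inducible *Nr5a1* and *Dmrt1* lentiviruses, moved to another medium and sorted for CFP, so that these changes cannot be told apart in any comparison of iSLC.

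E-cadherin, encoded by *Cdh1*, holds epithelial cells together at adherens junctions, and EpCAM is a second epithelial adhesion molecule. When cells leave an epithelium, as they do at gastrulation when mesoderm forms, E-cadherin is commonly replaced by N-cadherin (*Cdh2*), a change known as the cadherin switch, and vimentin filaments often become abundant. The zinc finger proteins Snail (*Snai1*), Slug (*Snai2*), ZEB1 and ZEB2 repress *Cdh1* and other epithelial genes by binding E-boxes, and the bHLH protein TWIST1 is a further inducer of the transition. In the embryo these factors also act in tissues that are not undergoing a transition, such as limb and heart mesenchyme.

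Because the Snail and ZEB proteins are known to recognise the E-box CAGGTG, this motif was searched, as CAGGTG or its reverse complement CACCTG, in the 250 bases before the RefSeq start sites (GRCm38.p6). Promoters were at hand for 5 of the 10 genes, namely *Epcam*, *Snai1*, *Twist1*, *Vim* and *Zeb2*. The *Epcam* window held 2 copies and the *Snai1* window 1 copy, while the windows of *Twist1*, *Vim* and *Zeb2* held none. Of 32851 promoters of the same length, 17.22% held at least 1 copy and 2.06% held 2 or more. These 2 windows, the ones among the 5 genes that held the motif, are given in full, 5′ to 3′ with the motif in capitals. That of *Epcam* lies on the plus strand at chr17:87635729-87635978, with copies 187 to 182 and 19 to 14 bases before the start site. That of *Snai1* lies on the plus strand at chr2:167537945-167538194, with its copy 126 to 121 bases before the start site.
Epcam: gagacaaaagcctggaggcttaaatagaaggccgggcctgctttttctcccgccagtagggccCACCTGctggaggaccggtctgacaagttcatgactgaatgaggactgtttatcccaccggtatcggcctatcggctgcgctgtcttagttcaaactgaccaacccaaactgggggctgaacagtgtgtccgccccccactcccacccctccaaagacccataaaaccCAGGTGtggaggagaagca
Snai1: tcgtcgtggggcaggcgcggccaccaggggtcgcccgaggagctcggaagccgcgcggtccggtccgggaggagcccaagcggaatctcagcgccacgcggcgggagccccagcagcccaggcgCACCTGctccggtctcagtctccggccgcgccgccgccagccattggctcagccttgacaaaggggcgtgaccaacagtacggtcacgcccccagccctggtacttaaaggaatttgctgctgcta
A match is a description of these letters and does not show that a factor bound there.

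Library totals were 35923040 to 84876603 expected counts, which is deep enough that every one of the 10 genes passed the filter on low counts, with a mean normalized read count of 1135 for the lowest (*Snai2*). Stage markers followed the labels in part. *Nanog* was 345 to 368 TPM in ESC, *Fgf5* 117 to 121 TPM in EpiSC, *Mesp1* 81.7 to 92.0 TPM in M, and *Wt1* 138 to 165 TPM in IM3. Other markers did not single out their stage. *T* was 230.3 to 253 TPM in EpiSC and 463 to 529 TPM in M, and *Wt1* was lower in IM1 (5.74 to 7.37 TPM) than in ESC (11.7 to 12.1 TPM). *Lhx1*, a marker of early intermediate mesoderm, was 49.8 to 61.2 TPM in M and 0.44 to 0.45 TPM in IM3, and *Osr1*, another, was highest in iSLC (8.56 to 11.6 TPM). The forced genes *Nr5a1* (87.2 to 100.3 TPM) and *Dmrt1* (192 to 228 TPM) were high in iSLC. *Pax2*, a defining marker of intermediate mesoderm, was at 0.37 TPM or less everywhere, and *Amh*, a defining product of Sertoli cells, was 0.47 to 0.61 TPM in iSLC. Markers of other cells also moved with the groups. The summed CPM of 6 red blood cell genes was 3.90 to 27.1 in ESC, M, IM3 and IM4 and 0.38 to 1.39 in EpiSC, IM1, IM2, IM5 and iSLC, with *Hbb-bt* listed at 0 in all libraries of the latter groups. Sums over 5 endoderm markers (*Sox17*, *Foxa2*, *Ttr*, *Afp* and *Amn*) reached 104 to 305 CPM in the IM conditions against 51.6 CPM or less elsewhere. The red blood cell genes were present already in ESC (*Hbb-bs* 5.54 to 43.4 TPM), and whether their reads came from cells of these cultures was not tested. The part of other cells in the results was not tested either, and in bulk RNA fewer cells of a type and less RNA per cell cannot be told apart. IM5 replicate 1 and M replicate 2 stood apart most from the other libraries of their groups, with a chi-square per degree of freedom of 49.1 and 32.3 against 13.0 between the other IM5 pair, and of 27.3 and 35.3 against 6.64 between the other M pair. At lower values the same held for ESC replicate 2 (17.8 and 23.2 against 8.96) and IM2 replicate 1 (12.7 and 15.1 against 5.34). It also held for IM3 replicate 3 (12.6 and 16.4 against 7.33) and IM4 replicate 3 (13.1 and 12.4 against 6.51). The study calls the 3 libraries of a group biological replicates. Whether they were separate cultures is not stated, so p-values measure the spread between these samples of 1 clone.

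The epithelial adhesion genes were high in the pluripotent groups and fell in steps. *Cdh1* (ENSMUSG00000000303, chromosome 8, 106603351 to 106670246, plus strand, GRCm38) was 237, 219 and 231 TPM in the ESC libraries and 243, 240 and 235 TPM in EpiSC. It was 67.8, 51.0 and 63.5 TPM in M and 47.2, 40.2 and 42.1 TPM in IM1. In the 4 conditions with RA its means were 14.7 to 16.7 TPM, and their libraries overlapped, from 13.0 TPM in IM3 to 19.3 TPM in IM4. In iSLC *Cdh1* was 1.47, 1.62 and 1.9 TPM. Its libraries thus fell into 5 levels that did not overlap, namely ESC with EpiSC, M, IM1, the RA conditions, and iSLC. *Epcam* (ENSMUSG00000045394, chromosome 17, 87635979 to 87651129, plus strand) followed the same order except at the start, where EpiSC (202 to 209 TPM) lay above ESC (132 to 144 TPM). It was 56.2, 51.2 and 50.6 TPM in M, 20.7 to 24.1 TPM in IM1, 9.23 to 10.6 TPM in IM3 and 1.58 to 1.71 TPM in iSLC. Unlike *Cdh1*, *Epcam* was higher in the RA conditions with Activin A (IM2 16.1 to 17.3 TPM and IM5 16.3 to 19.7 TPM) than in those without it (IM3, and IM4 at 10.2 to 12.0 TPM). Summed endoderm markers moved the same way, at 187 to 305 CPM in IM2 and IM5 against 104 to 120 CPM in IM3 and IM4, and their part in the *Epcam* levels was not tested.

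The mesenchymal cadherin genes were low in ESC, higher in EpiSC and far higher in M. *Cdh2* (ENSMUSG00000024304) was 1.69, 1.75 and 1.32 TPM in ESC, 9.92, 8.82 and 8.75 TPM in EpiSC, and 208, 180.4 and 216 TPM in M. The M libraries held the highest *Cdh2* of the series. It was lower in every IM condition, with means from 79.9 TPM in IM4 to 111 TPM in IM1, and 121, 129 and 128 TPM in iSLC. *Cdh11* (ENSMUSG00000031673, chromosome 8, 102632095 to 102785642, minus strand), which encodes a cadherin of mesenchymal cells and of developing bone, was 0.30, 0.29 and 0.17 TPM in ESC and 2.30, 1.88 and 3.01 TPM in EpiSC. It reached 69.1, 66.7 and 71.1 TPM in M. Its level was lower in IM1, at 39.1 to 40.9 TPM, and in IM5, at 51.7 to 63.8 TPM, both below every M library. IM2, IM3 and IM4 lay close to M, with overlapping libraries from 64.2 to 75.7 TPM. In iSLC *Cdh11* was 193, 207 and 204 TPM, above every other library. The 2 cadherins therefore peaked in different groups, *Cdh2* in M and *Cdh11* in iSLC.

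**Figure D1:**
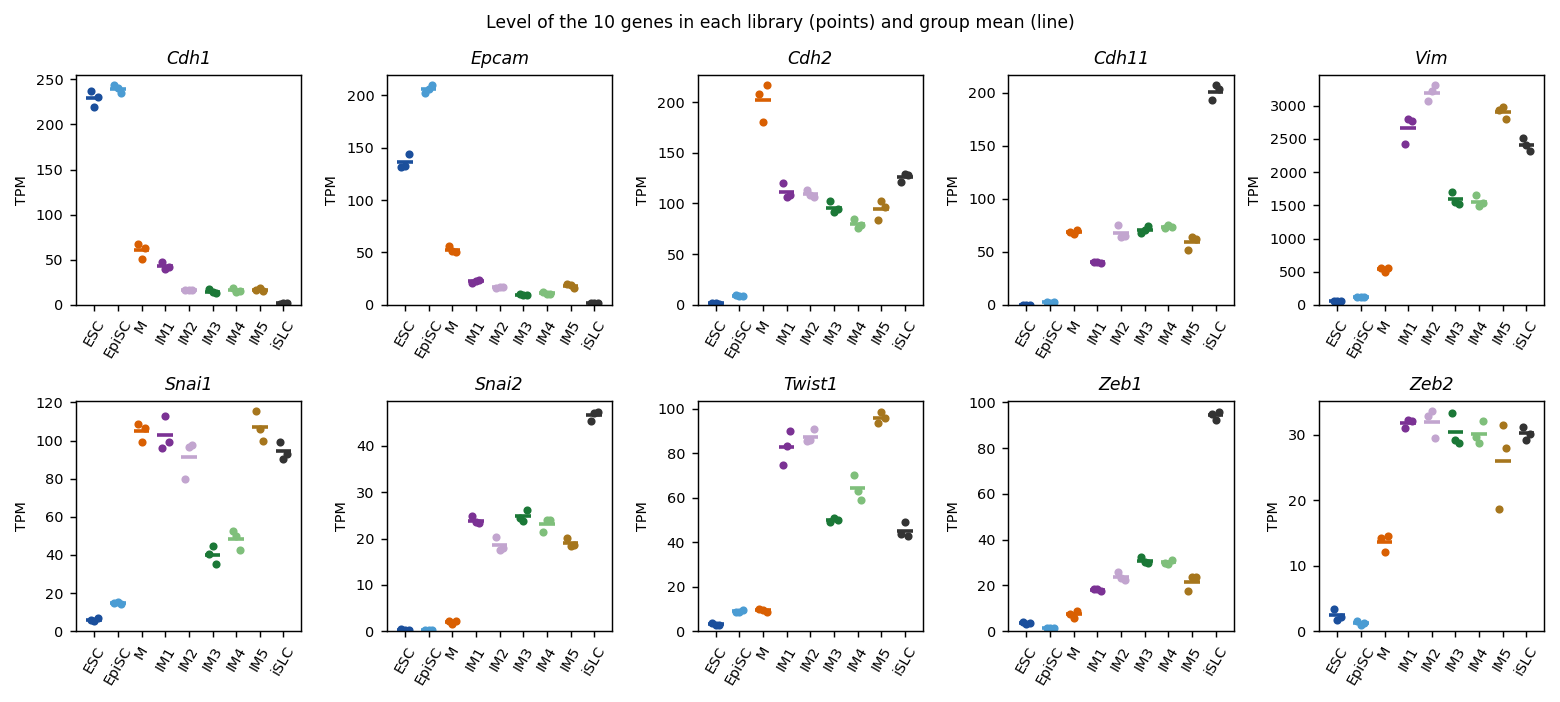
Level (TPM, y axis) of the 10 genes in the 9 groups (x axis). Each point is a library and each line the mean of 3 libraries. *Cdh1* and *Epcam* are highest in ESC and EpiSC and at 1.9 TPM or less in iSLC, *Cdh2* peaks in M, and *Cdh11*, *Snai2* and *Zeb1* peak in iSLC.

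Since TPM is scaled per length, the 2 cadherin genes can be set against each other within a library. The log2 ratio of *Cdh2* to *Cdh1* TPM, with 0.1 TPM added to each, was −7.09 ± 0.23 (SD, n = 3) in ESC and −4.69 ± 0.08 (SD, n = 3) in EpiSC. It was 1.73 ± 0.11 (SD, n = 3) in M, so the excess of *Cdh1* turned into an excess of *Cdh2* between EpiSC and M. In IM1 the ratio was 1.37 ± 0.03 (SD, n = 3), below all M libraries. It was 2.73 ± 0.02 in IM2, 2.70 ± 0.15 in IM3, 2.29 ± 0.14 in IM4 and 2.49 ± 0.13 in IM5 (SD, n = 3 each). In iSLC it reached 6.17 ± 0.15 (SD, n = 3), through the low level of *Cdh1* more than through a high *Cdh2*. The ratio is given as a description, without a test.

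**Figure D2:**
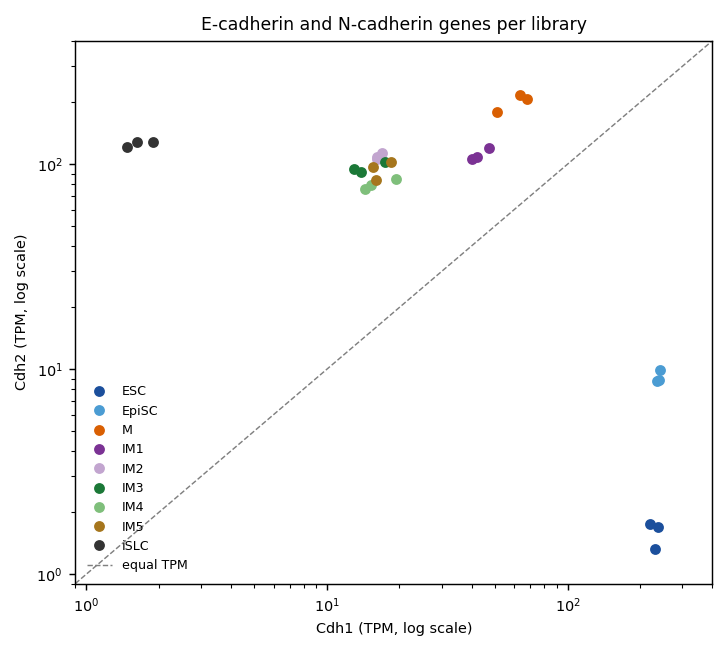
*Cdh1* (x axis) against *Cdh2* (y axis), both in TPM on log scales, with 1 point per library and a dashed line at equal TPM. ESC and EpiSC lie below the line, all other groups above it, and the iSLC libraries stand apart at the left, at 1.47 to 1.9 TPM of *Cdh1*.

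*Vim* (ENSMUSG00000026728, chromosome 2, 13573927 to 13582826, plus strand) encodes the main intermediate filament protein of mesenchymal cells. It was 59.4, 53.8 and 59.9 TPM in ESC, 115, 119 and 120.0 TPM in EpiSC and 560.2, 496 and 558 TPM in M. Its highest levels were in IM2 (3065, 3227 and 3308 TPM) and IM5 (2935, 2983 and 2806 TPM), followed by IM1 (2419 to 2806 TPM) and iSLC (2323 to 2512 TPM), which overlapped. IM3 (1703, 1554 and 1518 TPM) and IM4 (1653, 1486 and 1529 TPM) formed a lower pair. All IM and iSLC libraries lay above all M libraries.

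The factor genes did not move as 1 block. *Snai1* (ENSMUSG00000042821, chromosome 2, 167538195 to 167542814, plus strand) was 5.65, 5.32 and 6.78 TPM in ESC, 15.0, 15.2 and 14.2 TPM in EpiSC and 109, 99.5 and 107 TPM in M. It stayed near this level in IM1 (96.2, 112.9 and 99.4 TPM), IM2 (79.6, 96.7 and 97.8 TPM) and IM5 (115, 106 and 99.97 TPM), and was lower in IM3 (40.3, 44.8 and 35.4 TPM) and IM4 (52.6, 49.97 and 42.7 TPM). The libraries of the lower pair of conditions did not overlap with those of the others. In iSLC *Snai1* was again 99.5, 90.5 and 93.2 TPM. Its paralog *Snai2* (ENSMUSG00000022676, chromosome 16, 14705852 to 14709385, plus strand) was low for longer. It was 0.38 TPM or less in every ESC and EpiSC library, and 2.13, 1.53 and 2.17 TPM in M. It was 17.5 to 26.1 TPM over the 15 libraries of IM1 to IM5, and 45.3, 47.2 and 47.4 TPM in iSLC.

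*Twist1* (ENSMUSG00000035799, chromosome 12, 33957671 to 33959829, plus strand) was 3.69, 2.74 and 3.01 TPM in ESC, and did not separate EpiSC (8.57, 8.68 and 9.62 TPM) from M (9.84, 9.70 and 8.71 TPM). It was 74.7, 83.1 and 89.98 TPM in IM1, 85.6, 85.7 and 90.6 TPM in IM2 and 93.3, 98.7 and 95.9 TPM in IM5. IM4 (70.3, 63.1 and 59.0 TPM), IM3 (49.0, 50.9 and 49.97 TPM) and iSLC (43.6, 48.9 and 42.6 TPM) were lower. *Zeb1* (ENSMUSG00000024238) was 3.94, 3.08 and 3.43 TPM in ESC, lower in EpiSC (1.63, 1.60 and 1.34 TPM), and 7.52, 5.91 and 8.63 TPM in M. It was 17.5 to 18.5 TPM in IM1 and 29.5 to 32.6 TPM in IM3 and IM4, and iSLC (94.98, 92.3 and 96.0 TPM) lay above every other library. *Zeb2* (ENSMUSG00000026872, chromosome 2, 44983632 to 45117395, minus strand) was also lower in EpiSC (1.59, 1.02 and 1.19 TPM) than in ESC (3.39, 1.68 and 2.17 TPM), and was 14.2, 12.1 and 14.6 TPM in M. From there it differed little, since the means of IM1 to IM5 and iSLC were 26.0 to 32.0 TPM with overlapping libraries. The low end was IM5 replicate 1, at 18.7 TPM against 31.5 and 28.0 TPM in the other IM5 libraries. *Zeb2* shares 3.3% of its exonic bases with the antisense gene *Zeb2os* and *Zeb1* 1.9% with *Gm10125* on the opposite strand. Whether the authors' counting used strand is not stated, so these parts cannot be assigned with certainty.

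The comparisons follow the steps of the protocol. A gene was called where edgeR's quasi-likelihood test gave an adjusted p (Benjamini-Hochberg over the 20839 genes tested) of at most 0.01, the fold was 2 or more and the normalized read counts averaged 100 or more. Fold changes are log2 ± SE of the fitted counts, with n = 3 libraries per group. Comparisons that have a group in common share its libraries. Shares called are given over all 20839 genes tested. Of these, 13477 averaged 100 or more counts and could be called, so the shares among genes with such counts are higher.

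Between ESC and EpiSC, 6 of the 10 genes were called, 5 higher and 1 lower, where 8.07% of all genes tested were called (3.75% higher and 4.32% lower). The 2 mesenchymal cadherins rose from low levels, *Cdh11* by 3.10 ± 0.12 and *Cdh2* by 2.59 ± 0.08, along with *Twist1* by 1.58 ± 0.10, *Snai1* by 1.36 ± 0.12 and *Vim* by 1.13 ± 0.06. *Zeb1* fell by 1.16 ± 0.09. The adjusted p of the called genes was at most 1.88e-10 (edgeR). *Cdh1* did not pass the test (0.11 ± 0.09, adjusted p = 0.296, edgeR), and *Epcam* (0.64 ± 0.07) and *Zeb2* (−0.43 ± 0.11) were under the fold. The log2 ratio of the *Zeb2* means in TPM was −0.88, and the cause of this gap was not tested.

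From EpiSC to M, 9 of the 10 genes were called, 7 higher and 2 lower, against 14.5% of all genes (6.79% higher and 7.72% lower). *Cdh1* and *Epcam* each fell, by 2.04 ± 0.09 and 2.04 ± 0.07. *Cdh11* rose by 4.81 ± 0.08 and *Cdh2* by 4.35 ± 0.07, the largest changes of the set at this step. *Zeb2* rose by 3.63 ± 0.09, *Snai2* by 2.77 ± 0.17, *Snai1* by 2.75 ± 0.10, *Zeb1* by 2.19 ± 0.08 and *Vim* by 2.09 ± 0.06. The adjusted p of the called genes was at most 4.67e-14 (edgeR). *Twist1* was at −0.01 ± 0.09 (adjusted p = 0.946, edgeR). The median log2 fold change was 2.47 over the 10 genes and −0.06 over all genes tested.

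From M to the IM conditions, *Twist1* rose as well, which had not passed the test from EpiSC to M. In IM1, 6 genes were called against M, 5 higher and 1 lower (15.7% of all genes were called, 9.72% higher and 5.94% lower). *Snai2* rose by 3.52 ± 0.10, *Twist1* by 3.04 ± 0.08, *Vim* by 2.26 ± 0.06, *Zeb1* by 1.15 ± 0.07 and *Zeb2* by 1.01 ± 0.08, while *Epcam* fell by 1.32 ± 0.07. *Zeb2* sat at the fold threshold, and the call ended without M replicate 2 (0.97), IM1 replicate 2 (1.00) or IM1 replicate 3 (1.00). *Cdh1* (−0.59 ± 0.09), *Cdh2* (−0.92 ± 0.06) and *Cdh11* (−0.81 ± 0.06) were all under the fold, and *Snai1* was at −0.12 ± 0.09 (adjusted p = 0.263, edgeR). In IM3, the condition from which iSLC were made, 8 genes were called against M, 4 higher and 4 lower (14.9% of all genes were called, 9.26% higher and 5.66% lower). *Snai2* rose by 3.48 ± 0.10, *Twist1* by 2.22 ± 0.08, *Zeb1* by 1.77 ± 0.07 and *Vim* by 1.37 ± 0.06. *Epcam* fell by 2.62 ± 0.08, *Cdh1* by 2.22 ± 0.10, *Snai1* by 1.57 ± 0.10 and *Cdh2* by 1.25 ± 0.06. The adjusted p of the called genes was at most 3.84e-12 in IM1 and 8.66e-14 in IM3 (edgeR). Thus *Cdh1* and *Cdh2* were both lower in IM3 than in M, and *Snai1* and *Snai2* changed in opposite directions. Summed red blood cell genes were at like levels in M and IM3 but not in M and IM1, as given above.

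**Figure D3:**
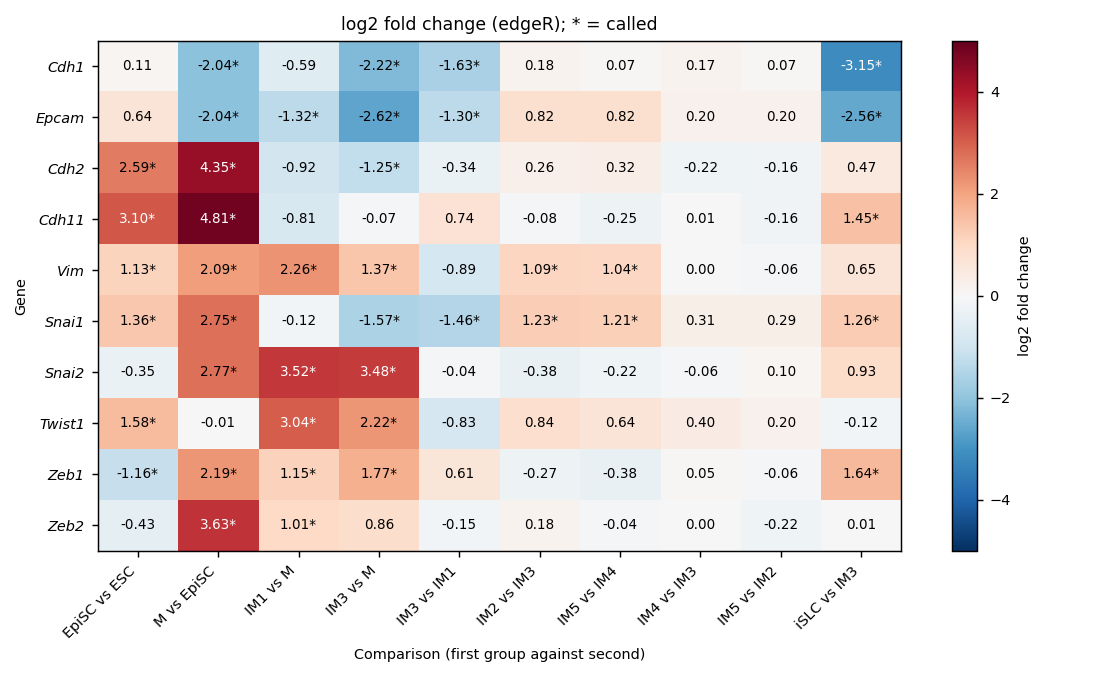
Fitted log2 fold change (colour and number, edgeR) of the 10 genes (rows) in 10 comparisons (columns, first group against second), with an asterisk where the gene was called. The largest rises are those of *Cdh11* (4.81) and *Cdh2* (4.35) from EpiSC to M, and the IM4 against IM3 and IM5 against IM2 columns hold no call.

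Retinoic acid separates IM3 from IM1. With it, 3 genes were called, all lower, where 6.34% of all genes were called, 2.62% higher and 3.72% lower. *Cdh1* fell by 1.63 ± 0.10, *Snai1* by 1.46 ± 0.10 and *Epcam* by 1.3 ± 0.08, with an adjusted p of at most 1.57e-12 (edgeR). *Vim* (−0.89 ± 0.06), *Twist1* (−0.83 ± 0.07), *Cdh11* (0.74 ± 0.06), *Zeb1* (0.61 ± 0.07) and *Cdh2* (−0.34 ± 0.06) had an adjusted p under the threshold and a fold under 2. *Snai2* was at −0.04 ± 0.08 (adjusted p = 0.698, edgeR) and *Zeb2* at −0.15 ± 0.07 (adjusted p = 0.101, edgeR). Markers of other cells moved too. From IM1 to IM3 the summed mesothelium markers (*Krt19*, *Upk3b* and *Msln*) went from 288 to 348 CPM to 694 to 747 CPM. Within this sum *Upk3b* rose from 1.18 to 3.38 TPM to 204 to 224 TPM, and *Msln* from 0.29 to 0.56 TPM to 4.17 to 4.35 TPM. *Krt19* overlapped, at 399 to 484 TPM in IM1 and 440 to 451 TPM in IM3. The cardiomyocyte markers (*Myh6*, *Myl7*, *Actc1* and *Tnnt2*) went from 69.9 to 86.7 CPM to 128 to 255 CPM. Endothelium markers went from 322 to 346 CPM to 117 to 133 CPM and endoderm markers from 149 to 164 CPM to 106 to 120 CPM. Within the endothelium sum *Emcn* rose, from 1.25 to 1.50 TPM to 2.12 to 2.68 TPM. Within the endoderm sum *Afp* rose, from 47.6 to 51.7 TPM to 69.2 to 78.5 TPM, while the other markers of the sum fell. The summed red blood cell genes went from 0.93 to 1.39 CPM to 6.31 to 20.1 CPM. Whether any of these shifts had a part in the falls of *Cdh1*, *Snai1* and *Epcam* was not tested.

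Activin A was compared in cells with RA, without CHIR99021 (IM2 against IM3) and with it (IM5 against IM4). Without CHIR99021, 2 genes were called, both higher, where 3.80% of all genes were called, 2.46% higher and 1.34% lower. They were *Snai1* (1.23 ± 0.10) and *Vim* (1.09 ± 0.06). With CHIR99021 the same 2 genes were called, *Snai1* (1.21 ± 0.10) and *Vim* (1.04 ± 0.06), where 4.09% of all genes were called, 2.63% higher and 1.46% lower. The call on *Vim* here rests on the fold threshold, since its value was 1.00 without IM4 replicate 3, 0.98 without IM5 replicate 1 and 0.96 with an offset for gene length, which left 1 call. *Twist1* (0.84 ± 0.07 without and 0.64 ± 0.07 with CHIR99021) and *Epcam* (0.82 ± 0.08 in both) stood under the fold in each. *Cdh2* was also higher in each (0.26 ± 0.06 and 0.32 ± 0.06), while *Zeb1* was lower in each (−0.27 ± 0.07 and −0.38 ± 0.07). *Snai2* was lower without CHIR99021 (−0.38 ± 0.08) and *Cdh11* lower with it (−0.25 ± 0.06). These values of *Cdh2*, *Zeb1*, *Snai2* and *Cdh11* had an adjusted p under the threshold and a fold under 2. *Cdh1* did not pass the test in either (0.18 ± 0.10 and 0.07 ± 0.09, adjusted p = 0.15 and 0.553, edgeR). Summed mesothelium markers were lower with Activin A, at 291 to 355 CPM in IM2 against 694 to 747 CPM in IM3 and at 232 to 247 CPM in IM5 against 552 to 601 CPM in IM4. Their cardiomyocyte counterparts were 66.4 to 84.8 against 128 to 255 CPM and 29.8 to 37.2 against 61.5 to 74.1 CPM, and those of endothelium 173 to 186 against 117 to 133 CPM and 168 to 178 against 113 to 140.0 CPM. The cardiomyocyte marker *Tnnt2* overlapped in each, at 61.8 to 66.0 TPM in IM2 against 53.3 to 85.2 TPM in IM3. It was 36.6 to 40.7 TPM in IM5 against 32.9 to 37.1 TPM in IM4. The summed red blood cell genes were 0.38 to 0.59 CPM in IM2 against 6.31 to 20.1 CPM in IM3. They were 0.66 to 0.87 CPM in IM5 against 8.45 to 19.8 CPM in IM4. Among the IM conditions, IM3 and IM4 thus had both the higher red blood cell sums and the lower *Snai1* and *Vim*. Whether any of these shifts had a part in the rises of *Snai1* and *Vim* was not tested. The difference between the 2 Activin A effects, tested as an interaction, was called for 0 of the 10 genes (0.0336% of all genes), and 1 gene, *Zeb2* (−0.22 ± 0.11), had an unadjusted p under 0.05 (edgeR). DESeq2 also called 0.

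CHIR99021 gave no call among the 10 genes. In IM4 against IM3, edgeR called 0 (0.101% of all genes), 4 had an unadjusted p under 0.05, and DESeq2 called 0. *Twist1* was at 0.40 ± 0.07 (adjusted p = 0.00207, edgeR) and *Cdh2* at −0.22 ± 0.06 (adjusted p = 0.0411, edgeR), both under the fold. In IM5 against IM2, edgeR and DESeq2 again called 0 (0.235% of all genes in edgeR). Of the 10 genes, 6 had an unadjusted p under 0.05, and *Snai1* at 0.29 ± 0.09 had an adjusted p of 0.0481 (edgeR). The 10 values ran from −0.22 to 0.29 there. *Zeb2* (−0.22 ± 0.07) was at −0.11 without IM5 replicate 1.

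In iSLC, 5 genes were called against IM3, 3 higher and 2 lower (19.2% of all genes were called, 10.3% higher and 8.92% lower). *Cdh1* fell by 3.15 ± 0.12 and *Epcam* by 2.56 ± 0.11. *Zeb1* rose by 1.64 ± 0.07, *Cdh11* by 1.45 ± 0.06 and *Snai1* by 1.26 ± 0.10, with an adjusted p of at most 5.74e-12 among the 5 called genes (edgeR). *Snai2* (0.93 ± 0.08), *Vim* (0.65 ± 0.06) and *Cdh2* (0.47 ± 0.06) were under the fold. *Twist1* (−0.12 ± 0.07, adjusted p = 0.128, edgeR) and *Zeb2* (0.01 ± 0.07, adjusted p = 0.881, edgeR) did not pass the test. Summed endoderm markers were 6.98 to 11.9 CPM in iSLC against 106 to 120 CPM in IM3, and mesothelium markers 59.6 to 69.3 CPM against 694 to 747 CPM. Both are epithelia that express *Cdh1* or keratins, and their part in the fall of the epithelial genes was not tested. The summed red blood cell genes were 0.70 to 0.94 CPM in iSLC against 6.31 to 20.1 CPM in IM3, and their part was not tested either. Over the whole protocol, iSLC against ESC, all 10 genes were called, 8 higher and 2 lower (32.0% of all genes were called, 17.0% higher and 15.0% lower). *Cdh11* rose most, by 9.29 ± 0.11, and *Cdh1* fell by 7.30 ± 0.13, more than *Epcam* (−6.58 ± 0.10). Over the 9 groups all 10 genes differed at an adjusted p under 0.05, as 96.4% of all genes did.

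Related genes were taken as whole lists. Of all genes tested, 6.79% were called higher and 7.72% lower from EpiSC to M. In the same order the shares were 9.72% and 5.94% in IM1 against M, and 9.26% and 5.66% in IM3 against M. They were 2.62% and 3.72% in IM3 against IM1, and 10.3% and 8.92% in iSLC against IM3. With Activin A they were 2.46% and 1.34% (IM2 against IM3) and 2.63% and 1.46% (IM5 against IM4). Of 23 tight junction, desmosome and keratin genes, 5 rose and 11 fell from EpiSC to M (median −0.80 over the list). The falls were led by *Krt7* (−3.14 ± 0.12) and *Marveld3* (−2.56 ± 0.15), a tight junction protein gene. The rises were led by the desmoplakin gene *Dsp* (2.64 ± 0.09) and the keratin gene *Krt19* (2.12 ± 0.08). The simple epithelial keratins *Krt8* (1.9 ± 0.08) and *Krt18* (1.68 ± 0.06), named here after their values were seen, also rose, so part of the epithelial genes rose at the step at which *Cdh1* and *Epcam* fell. *Krt8* was 240.5 to 251 TPM in EpiSC and 888 to 1055 TPM in M, and then 926 to 1802 TPM over the IM libraries. In iSLC 15 of the 23 were called against IM3, all lower (median −3.09), with *Krt8* at 16.1 to 19.6 TPM (−5.86 ± 0.10) and *Krt19* at 8.09 to 10.1 TPM (−5.62 ± 0.09). *Krt19* is also one of the mesothelium markers above.

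**Figure D4:**
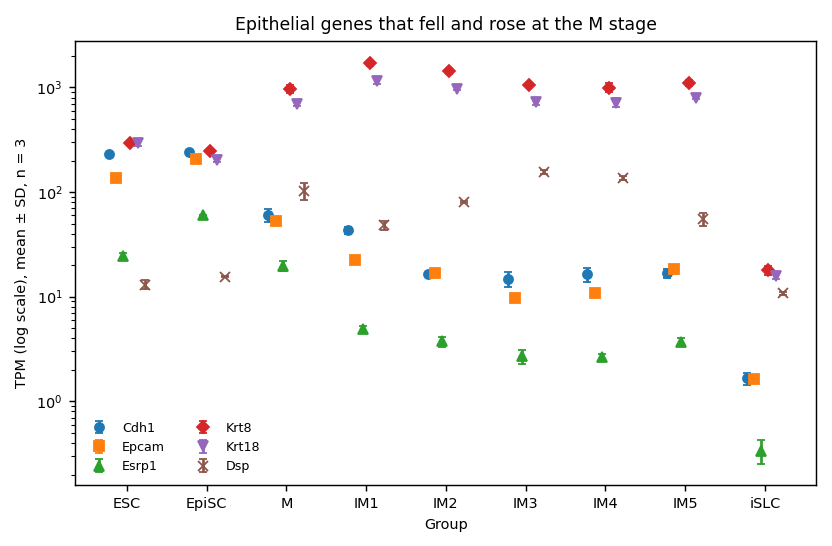
Mean TPM (y axis, log scale) ± SD of 3 libraries for 6 epithelial genes in the 9 groups (x axis). *Cdh1*, *Epcam* and *Esrp1* fall from EpiSC to M while *Krt8*, *Krt18* and *Dsp* rise, and all 6 are low in iSLC.

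Of 10 epithelial splicing and transcription factor genes, 7 were called from EpiSC to M, all lower (median −1.76), led by *Grhl1* (−2.71 ± 0.12), a grainyhead-like factor, and *Ovol2* (−2.59 ± 0.19), a factor that maintains epithelia. *Esrp1*, an epithelial regulator of splicing, was 59.2 to 60.6 TPM in EpiSC, 17.1 to 21.1 TPM in M and 0.24 to 0.41 TPM in iSLC. With RA, in IM3 against IM1, 1 of the list rose and 2 fell (median −0.70). *Tfap2c* (−1.5 ± 0.09) and *Esrp2* (−1.24 ± 0.12) fell. The gene that rose was *Grhl3*, for another grainyhead-like factor. It was 0.88 to 1.02 TPM in IM1 and 9.94 to 11.2 TPM in IM3 (3.42 ± 0.13), and it was 0.75 to 1.23 TPM in iSLC (−3.45 ± 0.13 against IM3). In iSLC against IM3, 7 of the 10 were called, all lower (median −2.34).

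Among the 18 other cadherin genes, of which 17 were tested, 4 were called from EpiSC to M, 2 higher and 2 lower (median −1.32 over the list). The R-cadherin gene *Cdh4* (3.95 ± 0.12) and the K-cadherin gene *Cdh6* (3.88 ± 0.20) rose, and *Cdh10* (−1.54 ± 0.17) and *Cdh3* fell. *Cdh4* was 8.20 to 9.92 TPM in M and 1.84 TPM or less in all other libraries. *Cdh3*, which encodes P-cadherin, another classical cadherin, fell at this step (−1.32 ± 0.07) and rose from M to IM3 (3.45 ± 0.07), to 113 to 122 TPM, above the *Cdh1* and *Cdh2* levels of the same libraries. In IM1 *Cdh3* was 44.8 to 54.3 TPM. *Cdh5*, the VE-cadherin gene of endothelium, was 0.34 TPM or less in M and 38.9 to 44.3 TPM in IM1 (7.20 ± 0.15), where the 5 endothelium markers, which include it, also had their highest sum (322 to 346 CPM). Without a minimum on the read count, 14 cadherins were called from EpiSC to M in place of 4, since most of this list had few counts. The share of all genes called at that setting is not given here. Of the 12 catenin and adherens junction partner genes, 0 were called from EpiSC to M by edgeR and by DESeq2 (10 had an unadjusted p under 0.05 in edgeR, median 0.31 over the list). At this step 14.5% of all genes tested were called, so a count of 0 among 12 is not read as a difference. Fitted values of the partners with a mean normalized read count over 100 ran from −0.69 ± 0.08 for *Jup* (plakoglobin) to 0.83 ± 0.03 for *Ctnna1* (α-catenin), with *Ctnnb1* (β-catenin) at 0.36 ± 0.03. *Ctnna2* was at −0.65 by counts but 0.99 to 1.10 TPM in EpiSC against 0.23 to 0.35 TPM in M, and *Ctnna3* had few counts (−1.20, adjusted p = 0.251, edgeR). In iSLC against IM3 3 partners rose, among them *Ctnna2* (6.09 ± 0.23), the neural α-catenin gene, and *Jup* (1.45 ± 0.08), and 3 fell, among them *Ctnnd2* (−2.12 ± 0.12) and *Afdn* (−1.58 ± 0.07).

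Of 12 other genes for EMT-associated factors and E proteins, 1 rose and 3 fell from EpiSC to M (median 0.31). *Foxc1* rose (2.80 ± 0.12), and *Snai3* (−2.83 ± 0.16) and *Gsc* (−2.59 ± 0.16) led the falls. From M to IM1, 5 rose and 2 fell (median 0.65), led by *Prrx1* (6.88 ± 0.14) and *Foxc2* (5.80 ± 0.22), both factors of embryonic mesenchyme. From M to IM3, 4 rose and 2 fell (median −0.12). In iSLC against IM3, 4 rose and 3 fell (median 0.62), and *Klf8* fell most (−2.16 ± 0.11). With RA, in IM3 against IM1, 5 were called, all lower (median −1.25), led by *Foxc1* (−2.34 ± 0.11) and *Prrx1* (−1.50 ± 0.09). With Activin A, 3 rose in IM2 against IM3 (median 0.97) and 4 in IM5 against IM4 (median 1.11), led in both by *Foxc2* (1.80 ± 0.12 and 1.61 ± 0.12) and *Twist2* (1.48 ± 0.10 and 1.49 ± 0.10), the paralog of *Twist1*. *Foxc2* was 17.9 to 21.1 TPM in IM3 and 55.3 to 73.1 TPM in IM2. The factor gene *Gsc* was 19.7 to 22.5 TPM in EpiSC, 2.97 to 4.30 TPM in M and 0.04 to 0.08 TPM in IM3, where it had 2 counts or fewer per library, and 6.57 to 7.03 TPM in iSLC. Of 12 corepressors of the Snail and ZEB proteins, at most 1 was called at each step from EpiSC to iSLC, which is not far from the 14.5 to 19.2% of all genes called from EpiSC to M, M to IM1, M to IM3 and IM3 to iSLC. It was *Ctbp2* (−1.32 ± 0.04) from EpiSC to M, *Sin3a* from M to IM1 (−1.50 ± 0.04) and to IM3 (−1.39 ± 0.04), and *Ezh2* (−1.27 ± 0.05) from IM3 to iSLC.

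The mesenchymal matrix, integrin and contractile genes did not change in 1 direction at the cadherin switch. Of 18, 5 rose and 4 fell from EpiSC to M (median 0.66). The fibronectin gene *Fn1* rose (3.29 ± 0.06) to 892 to 1102 TPM, and *Thy1* (−2.42 ± 0.20) fell. *Lox*, for an enzyme that crosslinks collagen, also fell, from 0.56 to 0.71 TPM to 0.02 to 0.09 TPM, where it had 3 to 12 counts per library. The list rose at the next step, with 12 called in IM1 against M (median 2.46) and 11 in IM3 against M (median 1.57), all higher. Tenascin *Tnc* (7.06 ± 0.13 in IM1) and periostin *Postn* (8.99 ± 0.13 in IM3) led these. In iSLC against IM3, 9 rose and 1 fell (median 1.18). *Lox* was 1.26 to 1.48 TPM in IM3 and 121 to 131 TPM in iSLC (6.51 ± 0.11), *Fap* was 0.04 TPM or less in IM3 and 12.7 to 14.9 TPM in iSLC, and *Cd44* fell (−2.04 ± 0.09). Of 12 other intermediate filament genes, 7 were called from EpiSC to M, all lower (median −1.57), while *Vim* rose, with the neurofilament genes *Nefh* (−4.78 ± 0.13) and *Nefl* (−4.08 ± 0.10) in front. From M to IM3, 4 rose and 1 fell (median 0.86), with *Des* (3.80 ± 0.11), for desmin, and *Lmna* (2.33 ± 0.11), for lamin A, among those that rose, and *Ina* (−3.17 ± 0.10), for α-internexin, as the one that fell. The median over all genes tested was between −0.06 and 0.01 in each of these comparisons.

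**Figure D5:**
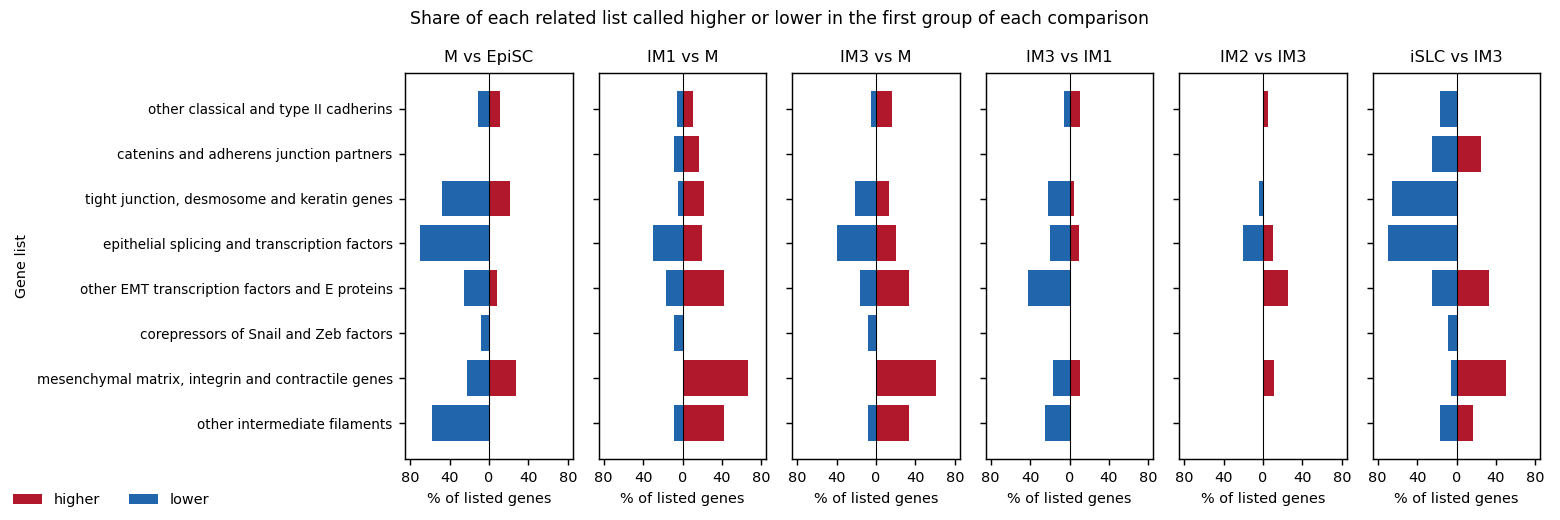
Share of the genes of 8 lists (rows, % of listed genes on the x axis) called higher (red, right) or lower (blue, left) in the first group of 6 comparisons (panels). From EpiSC to M the epithelial factor list has 7 of 10 genes lower, and in iSLC against IM3 the junction and keratin list has 15 of 23 lower. Over all genes tested, 7.72% and 8.92% were called lower in these comparisons.

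Across the 9 group means of log2 CPM the 10 genes fell into a few patterns. *Cdh1* and *Epcam* had the closest likeness (Pearson r = 0.99), and both ran against *Zeb1* (r = −0.97 and −0.98). *Cdh2* and *Cdh11* were also alike (r = 0.97). These are descriptions over 9 points that share libraries of 1 cell line and include 5 similar IM conditions. Among the 13477 genes whose normalized read counts averaged 100 or more, the 3 most like *Twist1* were its paralog *Twist2* (r = 0.996) beside *Arf1* (r = 0.991) and *Ltbp1* (r = 0.99), those of *Cdh11* were the protocadherin gene *Pcdh18* (r = 0.996), *2610008E11Rik* and *Zfp672* (r = 0.991 each), and those of *Epcam* were *Zpr1* (r = 0.996), *Fgd2* (r = 0.994) and the tight junction gene *Marveld3* (r = 0.993). The nearest to *Cdh1* were *Asna1*, *Zpr1* and *Map3k9* (r = 0.992 to 0.993), to *Zeb1* *Nf1*, *Rcor1* and *Trim35* (r = 0.994 to 0.995), and to *Snai1* *Stx6* (r = 0.986), *Rcn2* (r = 0.986) and *Rras* (r = 0.982). For the other 4 genes they were *Prkra*, *4933421O10Rik* and *Hgsnat* (*Cdh2*), *Micall1*, *Spcs1* and *Anxa5* (*Vim*), *Tvp23a*, *Rap2a* and *Psd3* (*Snai2*), and *Zfp319*, *Gnb4* and *Stau1* (*Zeb2*).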

How the data were processed

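RNA-seq of 27 mouse libraries in 9 groups of 3 was used, grouped by the deposited labels. According to the study's methods and processing notes, reads were trimmed with Cutadapt 1.9.1, aligned to GRCm38 (Ensembl 86) with STAR 2.5.2a and counted with RSEM 1.3.0. The authors deposited expected counts per gene, which are not normalized between libraries, TPM, in which each estimate is corrected for gene length and for the library total, and FPKM, which served only as an alternative. The strand setting is not given in the sources used here. Gene names and positions came from GENCODE M21 on GRCm38 and matched 48435 of 48795 genes (99.26%, holding 99.98% of the expected counts).

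Expected counts were rounded. In edgeR 4.0.16 under R 4.3.3, 20839 genes passed filterByExpr, libraries were scaled by TMM, and glmQLFit and glmQLFTest were run in 1 model with a coefficient for each group. p-values were adjusted over all genes tested (Benjamini-Hochberg). Calls used the thresholds of the study (adjusted p of at most 0.01, fold of 2 or more, and normalized read counts averaging 100 or more across the series and in 1 or both of the compared groups), and the test over 9 groups an adjusted p under 0.05. TPM was used as deposited for levels, and the cadherin ratio had a pseudocount of 0.1 TPM. Totals of 35923040 to 84876603 counts per library limit precision for genes with few counts only, and with 3 libraries a group the spread between libraries sets the error. Replicates of a group differed by more than sampling noise (chi-square per degree of freedom 3.46 to 49.1), and were counted separately. The steps were tested on simulated counts.

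The 10 genes and the 8 lists (117 genes) were chosen with earlier results of these data known, so no list is independent evidence. Named are the 10 genes, up to 2 largest rises and 2 largest falls per list and comparison among called genes, and the 3 genes most like each of the 10 (Pearson r over group means). Genes outside this rule are said to be chosen after their values were seen, as were the levels of *Esrp1*, *Krt8*, *Ctnna1*, *Ctnna3*, *Ctnnb1* and marker genes given for context. Alternatives were DESeq2 1.42.0 (test and size factors), an offset for gene length, other filters, folds and thresholds, fits of the compared groups alone, a replicate block and leaving out each library. RefSeq promoters (GRCm38.p6) were used without the part after the start site. Promoters of *Cdh1*, *Cdh2*, *Cdh11*, *Snai2* and *Zeb1* were not analysed here.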

Additional observations from a re-analysis of the deposited data

How the results depend on the processing

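All 10 genes kept their direction wherever they were called, under every alternative run. Counts of called genes changed by more than 1.5 times in few cases. Without the fold minimum, 8 genes were called in IM3 against IM1, 7 in IM2 against IM3, 7 in IM5 against IM4, 1 in IM4 against IM3 and 8 in iSLC against IM3, because this threshold alone held them back. The share of all genes called without the fold minimum is not given here, so these counts are not read as a result about the 10 genes. With the offset for gene length, 1 was called in IM5 against IM4 in place of 2. When each library was left out in turn, the count there was 1 to 2 and that of IM1 against M was 5 to 6, and the counts of the other comparisons did not change. With a pseudocount of 1 TPM the log2 ratio of *Cdh2* to *Cdh1* was −6.48 in ESC, −4.56 in EpiSC, 2.66 in IM2 and 5.58 in iSLC, nearer to 0 by construction. The replicate numbers did not pair the libraries, as in no pair of groups did all 3 same-numbered deviations correlate above 0.1, and a replicate block left 9 calls from EpiSC to M and changed no count of the 10 genes. Log2 ratios of mean TPM differed from the fitted values by more than the replicate spread in 30 gene comparisons, none with another sign among called genes, and the cause was not tested. List counts depended most on the count minimum, without which 14 in place of 4 other cadherins were called from EpiSC to M, and 6 in place of 3 and 7 in place of 4 other EMT factor genes with Activin A (IM2 against IM3 and IM5 against IM4). The shares of all genes called without this minimum are not given here. Levels under about 3 counts a library are not detectable at this depth.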
